A study of Mus musculus with 47 samples.

Results

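The genes described here make antibody-secreting cells and carry their product across epithelium: Jchain, Pigr, Mzb1, Xbp1, Prdm1, Irf4 and Sdc1. Every probe set annotated to 1 of these 7 genes in any of the 6 array tables was taken, which gave 9 probe sets of 49372 and 7 genes of the 16366 that had a probe set of their own. Within a gene, no measured value entered the choice of probe sets. The genes themselves were chosen with earlier results of these data known, so their counts of calls are a description.

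Plasma cells are the end stage of the B cell lineage and export antibody in large amounts. Irf4 and Prdm1 encode transcription factors that drive their formation, and Xbp1 encodes the factor that enlarges the endoplasmic reticulum, the compartment in which antibody is folded. Mzb1 is a resident protein of that compartment that aids antibody assembly, and Sdc1 (syndecan-1, CD138) is a surface proteoglycan of plasma cells and also of epithelium. Jchain, the joining chain, links IgA into dimers and is part of pentameric IgM. Pigr, the polymeric immunoglobulin receptor of epithelial cells, binds J chain-containing antibody on the tissue side and releases it into the airway lumen.

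Lung RNA of mice was measured on Affymetrix murine U74 arrays in 4 groups of 2 samples, coded 1a and 1b. Ragweed mice were sensitized on days 0 and 3 with pollen protein and alum and challenged with the protein through the trachea on days 10 and 17. PBS mice received PBS at both stages, and the labels name alum for the ragweed mice alone. Mice were killed after 24 h or 72 h. The labels used here give no strain, age or genotype and do not state that 1a and 1b came from different mice. The p-values therefore cover the variation within these pairs, and that variation may be technical. In whole lung, fewer cells of a type and less RNA per cell cannot be told apart.

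The fits used the first-version A arrays and the version 2 B and C arrays, which hold all 4 groups, and 25250 probe sets were tested. Values are linear intensities, and a floor, the 40th percentile of a table, marks the level under which a value was treated as not measured: 291.6 on A, 356.4 on B and 244.7 on C. The other version of the A and B arrays gave a repeat measurement, on version 2 A without ragweed arrays of 24 h. On first-version A and B the PBS arrays had been deposited on another scale than the ragweed arrays, while the version 2 arrays shared a scale. On the first-version arrays processing before deposit therefore cannot be told apart from treatment, and its part was not tested. The 24 h differences of Jchain and Pigr have no repeat on version 2 A. Differences are log2 differences ± SE with n = 2 samples a group, and a probe set was called at an adjusted p under 0.05 (limma, Benjamini-Hochberg over the 3 tables). Precision is limited by the number of arrays, with a median SE at 24 h of 0.23 on A and 0.32 on B.

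Jchain and Pigr were higher in ragweed than in PBS lungs at both times, and Mzb1 was higher at 72 h. Of the 6 genes that passed the filter on low values, 2 were called higher at 24 h, where 0.21% of all probe sets were called higher, and 3 at 72 h, where 0.333% were. The mean of both times called 3 of the 6 higher, against 0.463% of all probe sets. None of the 6 was called lower in any of these comparisons, where 0.0198%, 0.194% and 0.186% of all probe sets were. Xbp1, Prdm1 and Sdc1 were not called in any comparison, and Irf4 lay under the floor in every sample of the fitted table. The ragweed and PBS samples did not overlap, with ragweed higher, for 3 of the 6 genes at 24 h (Jchain, Pigr and Xbp1), against 16.3% of all probe sets, and for 4 of the 6 at 72 h (the same genes and Mzb1), against 18%.

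**Figure D1:**
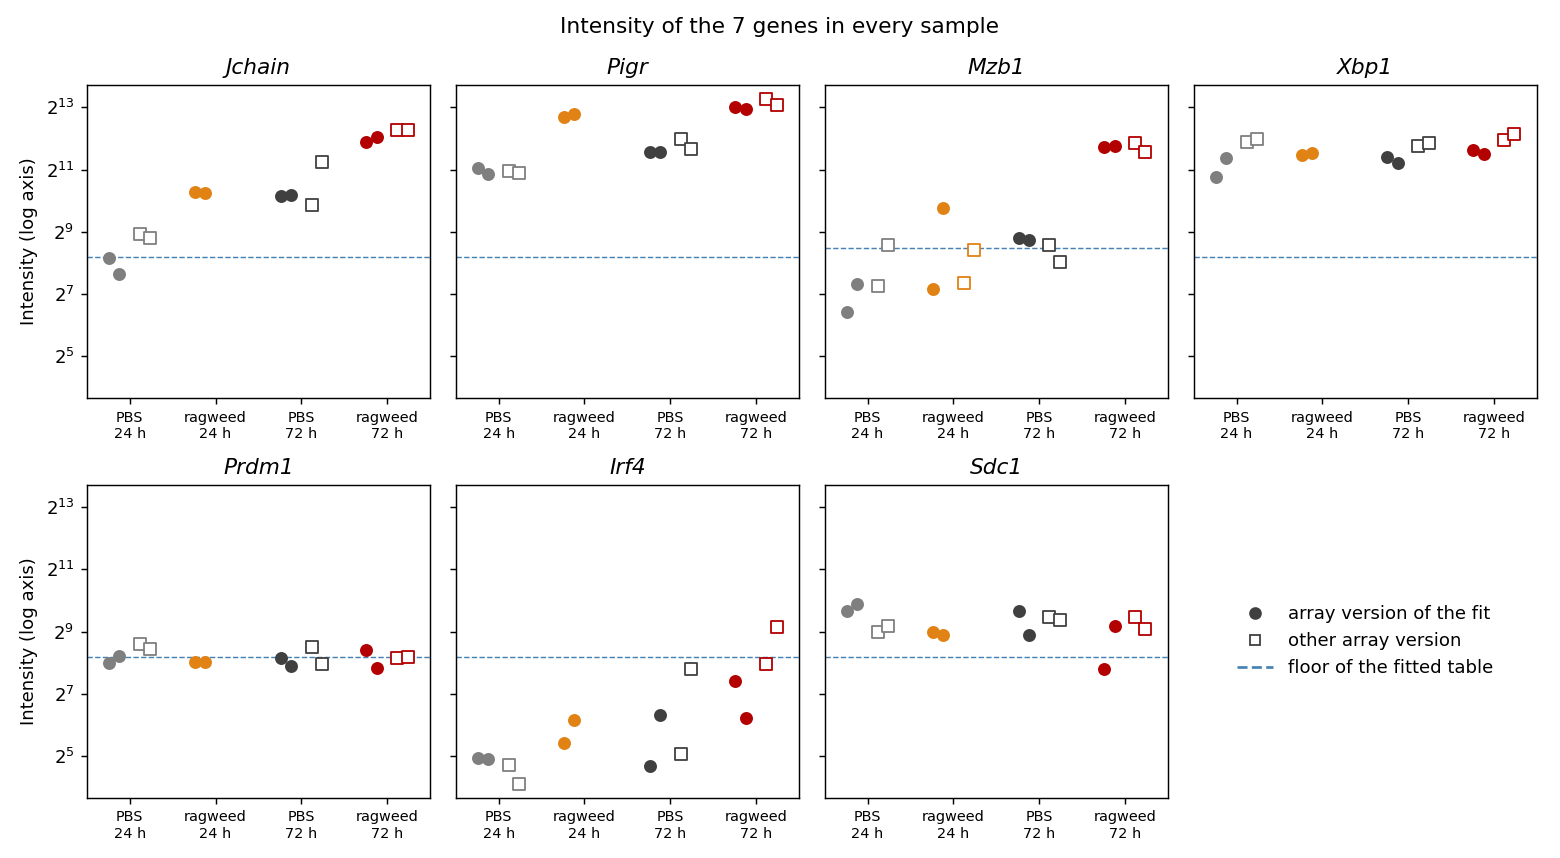
Intensity (log axis) of each gene in every sample, by group. Filled circles are the array version used in the fits, open squares the other version, and the dashed line is the floor of the fitted table. Jchain is lowest in PBS lungs of 24 h and highest in ragweed lungs of 72 h, Pigr is higher in both ragweed groups, and Xbp1, Prdm1 and Sdc1 show no called difference.

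The start of the Jchain gene is shown because this gene moved in each of the 4 comparisons between pairs of groups. The sequence is from RefSeq, build GRCm38.p6, chr5:88527848-88528147 on the minus strand, from 250 bases before to 50 bases after the start site, written 5′ to 3′. It is set beside the same stretch of Pigr, chr1:130826434-130826733 on the plus strand. Capitals mark matches, on either strand, to CACGTG (the E-box of USF factors), ACGTG (a core shared with the elements that Xbp1 binds), AANNGAAA (a core of sites for the IRF family) or ATGCAAAT (the octamer of immunoglobulin promoters).
Jchain: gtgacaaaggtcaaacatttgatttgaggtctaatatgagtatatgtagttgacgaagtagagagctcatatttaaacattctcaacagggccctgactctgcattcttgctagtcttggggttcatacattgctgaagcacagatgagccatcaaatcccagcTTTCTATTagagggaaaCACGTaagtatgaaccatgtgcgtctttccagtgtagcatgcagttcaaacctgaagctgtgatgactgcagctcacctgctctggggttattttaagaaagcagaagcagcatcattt
Pigr: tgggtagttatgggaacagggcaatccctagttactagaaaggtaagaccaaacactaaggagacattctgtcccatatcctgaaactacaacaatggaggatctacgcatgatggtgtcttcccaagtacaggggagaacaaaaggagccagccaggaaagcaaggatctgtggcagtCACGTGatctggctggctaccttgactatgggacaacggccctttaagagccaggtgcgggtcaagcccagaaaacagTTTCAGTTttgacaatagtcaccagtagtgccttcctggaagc
Jchain held 1 match to AANNGAAA, at bases -86 to -79 from the start site, and 1 to ACGTG, at -69 to -65, both on the opposite strand. Pigr held CACGTG at -71 to -66, which contains ACGTG on both strands, and AANNGAAA at 8 to 15 on the opposite strand. Neither held ATGCAAAT. Among the 32851 promoters of the same length in the table, CACGTG occurred in 7.15%, ACGTG in 19.6%, AANNGAAA in 23.9% and ATGCAAAT in 1.74%. Of the 6 genes of the set with an entry, 1 held CACGTG, 2 held ACGTG, 2 held AANNGAAA and 0 held ATGCAAAT. A match describes these letters and is not a shown binding site.

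Jchain, the chain that joins IgA and IgM into polymers, was measured by 1 probe set, 102372_at. Its intensity was 283.9 and 201.5 in PBS lungs at 24 h, both under the floor. It was 1241 and 1209 in ragweed lungs at 24 h, 1139 and 1174.2 in PBS lungs at 72 h, and 3762.2 and 4183.9 in ragweed lungs at 72 h. The PBS lungs of 24 h were lowest and the ragweed lungs of 72 h highest, with no overlap with any other group, and ragweed at 24 h and PBS at 72 h lay side by side between them.

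At 24 h Jchain was higher in ragweed lungs by at least 2.07 ± 0.17 on the log2 scale, at least 4.2-fold, with adjusted p = 0.00148 by limma. At 72 h the difference was 1.78 ± 0.17, a 3.43-fold higher level, with adjusted p = 0.00399 by limma. The 24 h call was kept in each of the 8 fits that left out 1 sample. The 72 h call was lost without either PBS sample of 72 h (differences 1.76 and 1.80, adjusted p = 0.0745 and 0.0839 by limma) and without either ragweed sample of 72 h (1.86 and 1.70, adjusted p = 0.0813 and 0.0894). The response at 72 h minus that at 24 h was -0.29 ± 0.23 (95% interval -0.83 to 0.24, adjusted p = 0.831 by limma), which did not pass the threshold.

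Jchain also differed with time within each treatment. In PBS lungs it was higher at 72 h than at 24 h by at least 1.99 ± 0.17 (adjusted p = 0.00429 by limma), the single gene of the set called in that comparison, in which 0.186% of all probe sets were called higher. In ragweed lungs it was 1.70 ± 0.17 higher at 72 h (adjusted p = 0.00809 by limma), 1 of 2 genes of the set called there, against 0.238% of all probe sets called higher and 0.0673% lower. Without any 1 of the 4 samples of 72 h, neither call held. The differences then ran from 1.97 to 2.01 in PBS lungs and from 1.62 to 1.77 in ragweed lungs. The adjusted p ran from 0.0685 (without ragweed 1a) to 0.128 (without PBS 1b) for PBS lungs, and from 0.0577 (without PBS 1a) to 0.119 (without ragweed 1a) for ragweed lungs. The neighbours in the order of levels, ragweed at 24 h and PBS at 72 h, differed by 0.08 ± 0.17 (95% interval -0.30 to 0.46, adjusted p = 0.897 by limma). Set against the PBS lungs of 72 h in place of those of 24 h, the 24 h ragweed lungs therefore had no called difference in Jchain.

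The same probe set on version 2 A gave 483.7 and 448.4 in PBS lungs at 24 h, 926.6 and 2410.1 in PBS lungs at 72 h, and 4890.1 and 4887.4 in ragweed lungs at 72 h. The order of the 3 groups was the same and none overlapped, but the PBS samples of 72 h stood far apart. All 6 values were above the floor of that table, 237.8. The lower bound of 1.99 over time in PBS lungs holds for first-version A alone. On version 2 A that difference was measured and smaller, at 1.68 ± 0.39 (adjusted p = 0.219 by limma). For ragweed at 72 h the difference was 1.71 ± 0.39 (adjusted p = 0.168), and neither was called there. On those arrays the ratio of the 3′ to the 5′ actin control probe sets, a sign of RNA or labelling quality, was 0.189 and 0.198 in PBS lungs at 72 h, against 0.535 and 0.437 in PBS lungs at 24 h and 0.801 and 0.578 in ragweed lungs at 72 h. On the first-version A arrays, which the fit of Jchain used, the ratio ran from 0.798 to 0.968. The part of this ratio in the version 2 A values was not tested.

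Antibody genes were read beside Jchain from a list of 14. Only 5 of them, all constant region genes, had a probe set of their own on the fitted arrays, and these 5 passed the filter. Ighm, the IgM heavy chain constant region, was called higher at both times, against 0.21% of all probe sets at 24 h and 0.333% at 72 h. The other 4 of the 5 genes were not called in any comparison. At an unadjusted p under 0.05 stood 2 of the 5 genes at 24 h and 3 at 72 h, all higher. Among all probe sets 8.67% and 9.63% had such a p, in either direction. Ighm intensity was 4239.8 and 4245 in PBS lungs at 24 h, 14150.2 and 13020.3 in ragweed lungs at 24 h, 9835.1 and 10113.5 in PBS lungs at 72 h, and 37862.1 and 29832.7 in ragweed lungs at 72 h. Its groups fell in the same order as those of Jchain, without overlap. The Ighm difference was 1.68 ± 0.12 at 24 h (adjusted p = 6.97e-04) and 1.75 ± 0.12 at 72 h (adjusted p = 0.00105), and PBS lungs of 72 h were 1.23 ± 0.12 above those of 24 h (adjusted p = 0.00691 by limma). Its probe set can cross-read related transcripts, so its level is uncertain.

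Igha, the IgA heavy chain constant region and the main antibody that Pigr carries, was looked at after its values were seen. Its intensity was 516 and 290.1 in PBS lungs at 24 h, 729.2 and 578.9 in ragweed lungs at 24 h, 761.9 and 806.6 in PBS lungs at 72 h, and 1838 and 1853 in ragweed lungs at 72 h. The ragweed lungs of 72 h stood apart from the other 3 groups. The differences were 0.74 ± 0.31 at 24 h (adjusted p = 0.549) and 1.24 ± 0.31 at 72 h (adjusted p = 0.194 by limma), and neither passed the threshold.

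**Figure D2:**
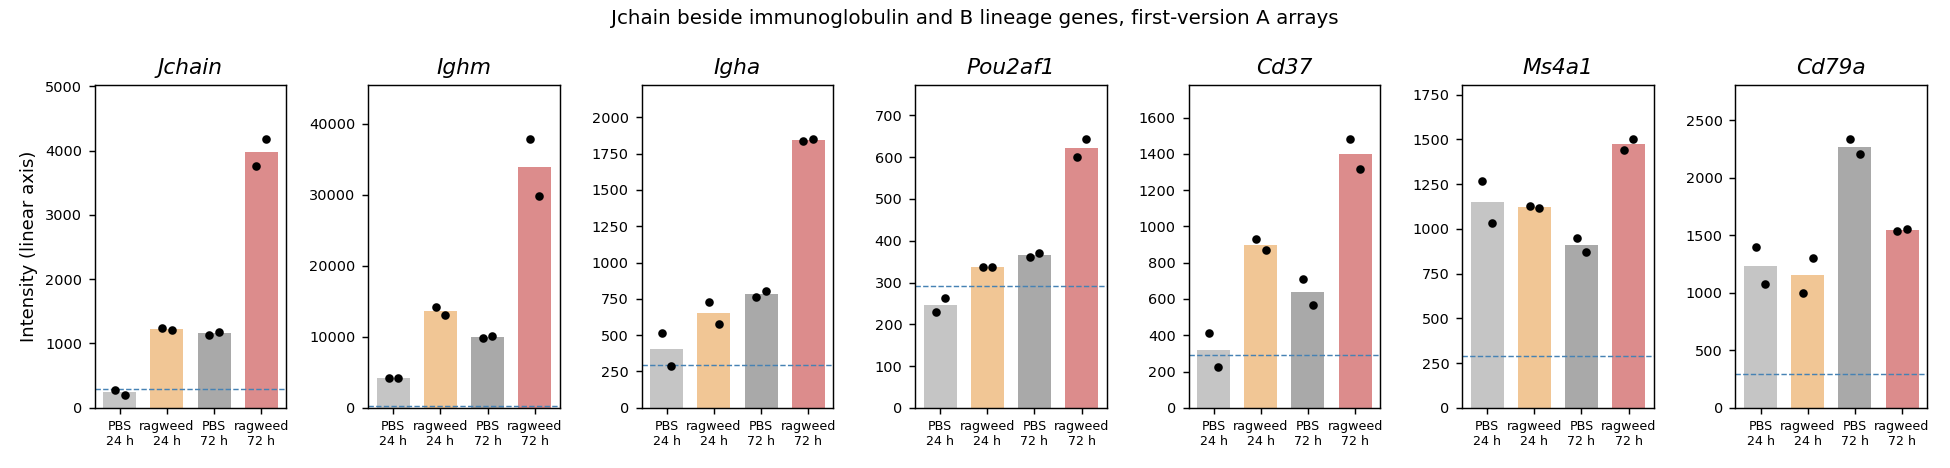
Intensity (linear axis from 0, scaled separately in each panel) of Jchain, Ighm, Igha, Pou2af1, Cd37, Ms4a1 and Cd79a on the first-version A arrays, genes picked for display after their values were seen. Bars are means of the 2 samples of a group, points are the samples and the dashed line is the floor. The ragweed lungs of 72 h are the highest group in each panel other than that of Cd79a, where the PBS lungs of 72 h are, at 2339.7 and 2203.2 against 1533.9 and 1554.2.

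Pigr, which moves polymeric antibody through epithelial cells, was measured by the probe set 99926_at and was well above the floor in every sample. Its intensity was 2108.4 and 1856.4 in PBS lungs at 24 h, 6660.3 and 7005.6 in ragweed lungs at 24 h, 3034.5 and 3045.7 in PBS lungs at 72 h, and 8240.3 and 7797.7 in ragweed lungs at 72 h. Both ragweed groups lay above both PBS groups, and no pair of groups overlapped.

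Pigr was 1.79 ± 0.10 higher in ragweed lungs at 24 h, a 3.45-fold higher level (adjusted p = 2.06e-04 by limma), and 1.40 ± 0.10 higher at 72 h, 2.64-fold (adjusted p = 0.00124 by limma). The 24 h call was kept in each of the 8 fits that left out 1 sample, and also against the PBS lungs of 72 h (1.17 ± 0.10, adjusted p = 0.00418 by limma). The 72 h call was lost without PBS 1a or 1b of 72 h (1.40 in both fits, adjusted p = 0.0601 and 0.0644 by limma) and without ragweed 1a or 1b of 72 h (1.36 and 1.44, adjusted p = 0.0583 and 0.0551). The response at 72 h minus that at 24 h was -0.39 ± 0.14 (unadjusted p = 0.0235, adjusted p = 0.615 by limma), and was not called.

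With time, Pigr was 0.62 ± 0.10 higher in PBS lungs at 72 h than at 24 h (adjusted p = 0.0615 by limma), which missed the threshold and passed it where p-values were adjusted within the A table (0.0226). In ragweed lungs the times differed by 0.23 ± 0.10 (95% interval 0.00 to 0.46, adjusted p = 0.465 by limma). On version 2 A, Pigr was 2003.9 and 1884.6 in PBS lungs at 24 h, 4016.9 and 3219.1 in PBS lungs at 72 h, and 9810.3 and 8655.9 in ragweed lungs at 72 h. These groups did not overlap and kept the same order, and the 72 h difference, 1.36 ± 0.14, was called there too (adjusted p = 0.0174 by limma). The actin 3′ to 5′ ratio on version 2 A also separated the treatments at 72 h, with 0.189 and 0.198 in PBS lungs and 0.801 and 0.578 in ragweed lungs. Its part in the Pigr values was not tested.

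Mzb1, which aids antibody assembly in the endoplasmic reticulum of B lineage cells, had 1 probe set with a signal, 111469_at on the B arrays. On version 2 B its intensity was 86.5 and 161.8 in PBS lungs at 24 h, 143.8 and 872.9 in ragweed lungs at 24 h, 445.2 and 431.7 in PBS lungs at 72 h, and 3355.5 and 3467.1 in ragweed lungs at 72 h. The ragweed lungs of 72 h stood far above the rest, and the 2 ragweed lungs of 24 h disagreed, with 1a under the floor and 1b above it. On first-version B it was 151.9 and 380.9, then 163.7 and 345.1, then 380.9 and 261.9, and last 3713.2 and 3027.3, in the same order of groups. The first 3 groups overlapped on those arrays and the ragweed lungs of 72 h again stood apart. The actin 3′ to 5′ ratio on version 2 B ran from 0.465 to 0.708 in PBS lungs and 1.08 to 1.09 in ragweed lungs at 24 h, and from 0.813 to 0.919 in PBS lungs and 0.831 to 1.10 in ragweed lungs at 72 h. It differed by treatment without overlap at 24 h and overlapped at 72 h, and its part in the Mzb1 values was not tested.

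At 72 h Mzb1 was 2.96 ± 0.47 higher in ragweed lungs, 7.78-fold (adjusted p = 0.0185 by limma), and on first-version B 3.18 ± 0.37 higher (adjusted p = 0.0117 by limma). At 24 h the difference was 0.65 ± 0.47 (95% interval -0.38 to 1.67, adjusted p = 0.763 by limma). Both PBS lungs and ragweed 1a entered it raised to the floor, so it rests on ragweed 1b and is neither a measured size nor a bound. On first-version B it was -0.05 ± 0.37, with both ragweed lungs and PBS 1a under that table's floor of 357.3, so no direction at 24 h is shown. The 72 h call was lost with the floor at the 20th percentile or with no floor (2.96, adjusted p = 0.193 in both), with adjustment within the B table (adjusted p = 0.0632 by limma), and in 6 of the 8 fits without 1 sample. These were the fits without either PBS sample of 24 h (2.96 in both, adjusted p = 0.0926), without PBS 1a or 1b of 72 h (2.98 and 2.94, adjusted p = 0.208 and 0.234 by limma) and without ragweed 1a or 1b of 72 h (2.98 and 2.94, adjusted p = 0.184 and 0.164). The mean of both times, 1.80 ± 0.33 (adjusted p = 0.0365 by limma), was called in 5 of 16 alternative fits. Of the fits with 1 sample left out it was called in the one without ragweed 1a of 24 h, and in the other 7 the difference ran from 1.48 (without ragweed 1b of 24 h) to 1.81, with adjusted p from 0.111 to 0.246.

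The response of Mzb1 at 72 h exceeded that at 24 h by 2.31 ± 0.66 (unadjusted p = 0.00477, adjusted p = 0.473 by limma), and by 3.23 ± 0.52 on first-version B (adjusted p = 0.687), so no difference between the responses was called. For that difference 0 of the 6 genes were called by limma and 2, Pigr and Mzb1, had an unadjusted p under 0.05. Among all probe sets 0.00396% were called with a larger response at 72 h, 0.0317% with a smaller one, and 7.35% had an unadjusted p under 0.05. In ragweed lungs Mzb1 was 2.61 ± 0.47 higher at 72 h than at 24 h (adjusted p = 0.0498 by limma). That call held in 1 of 16 alternative fits, the one without ragweed 1b of 24 h (3.26, adjusted p = 0.0459), and the differences of the other 15 ran from 1.97 to 3.27 with adjusted p up to 0.263. The PBS lungs of the 2 times differed by at least 0.30 ± 0.47 (adjusted p = 0.929 by limma). A further probe set, 164720_i_at on version 2 B, passed the floor on 1 of 8 arrays, was not tested, and ran from 61.7 in PBS lungs of 72 h to 510.8 in ragweed 1a of 24 h.

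**Figure D3:**
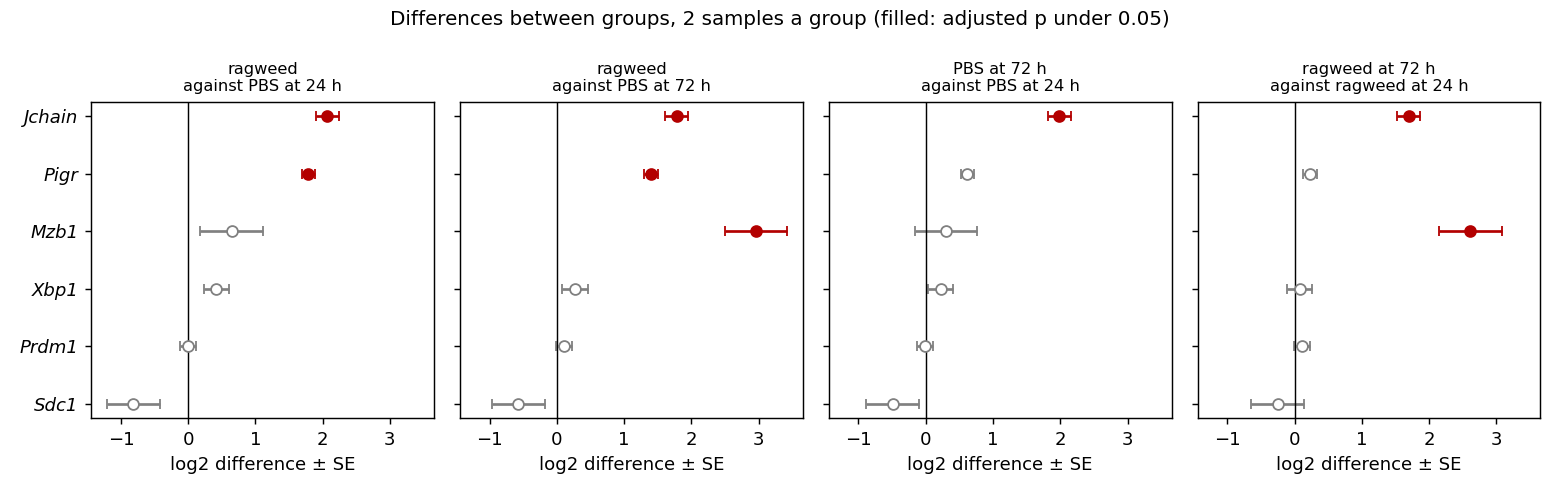
Log2 difference ± SE for the 6 tested genes in 4 comparisons, with 2 samples a group. Filled red points were called (adjusted p under 0.05) and open grey points were not. For Jchain at 24 h and over time in PBS lungs, and for Mzb1 over time in PBS lungs, the value is a lower bound because the lower group was under the floor. For Mzb1 at 24 h, 3 of the 4 samples were under the floor and the value is not a measured size.

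Xbp1, the regulator of secretory capacity, was above the floor in every sample with small differences between groups. Its intensity (94821_at) was 1752.7 and 2658.2 in PBS lungs at 24 h, 2831.8 and 2937.2 in ragweed lungs at 24 h, 2678.3 and 2371.4 in PBS lungs at 72 h, and 3177.1 and 2900.7 in ragweed lungs at 72 h. Ragweed lungs lay above PBS lungs of the same time without overlap, and PBS 1a of 24 h was the lowest sample. The differences were 0.42 ± 0.19 at 24 h (95% interval -0.01 to 0.85, adjusted p = 0.581) and 0.27 ± 0.19 at 72 h (-0.16 to 0.70, adjusted p = 0.718 by limma). On version 2 A the samples ran from 3442.8 to 4506.6, and the 72 h difference was 0.24 ± 0.12 (adjusted p = 0.489 by limma). These probe sets measure total Xbp1 RNA, and the activating splicing of that RNA was not analysed here.

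Prdm1, the Blimp-1 repressor that ends the B cell programme, was near the floor. Its intensity (92904_at) was 255.3 and 294.9 in PBS lungs at 24 h, 260.2 and 260.2 in ragweed lungs at 24 h, 286.6 and 238.5 in PBS lungs at 72 h, and 338.1 and 226.3 in ragweed lungs at 72 h. PBS 1b of 24 h and ragweed 1a of 72 h lay above the floor, the other samples under it, and the groups overlapped. The differences were -0.01 ± 0.12 at 24 h and 0.11 ± 0.12 at 72 h (adjusted p = 1 and 0.837 by limma), values that hold for levels raised to the floor. On version 2 A the 6 arrays ran from 249.6 to 387.9, and the 72 h difference was -0.07 ± 0.23, of the opposite sign and not called (adjusted p = 0.951 by limma).

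Irf4, the factor that starts plasma cell formation, had all 8 first-version A values under the floor and was not tested. They were 30.6 and 30.1 in PBS lungs at 24 h, 42.7 and 72.2 in ragweed lungs at 24 h, 25.9 and 80.5 in PBS lungs at 72 h, and 169.3 and 75.4 in ragweed lungs at 72 h. Values under the floor have no order. On version 2 A the floor was 237.8, and Irf4 was 26.1 and 17.4 in PBS lungs at 24 h, 33.4 and 223.8 in PBS lungs at 72 h, and 247.4 and 568.8 in ragweed lungs at 72 h. Both ragweed lungs were above that floor and the 4 PBS lungs under it. The 72 h difference there was at least 0.66 ± 0.35 (adjusted p = 0.563 by limma), which did not pass the threshold.

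Sdc1, the syndecan used as a surface marker of plasma cells and present on epithelium, had lower values in ragweed lungs that were not called. Its intensity (96033_at) was 801.2 and 938.6 in PBS lungs at 24 h, 511 and 474 in ragweed lungs at 24 h, 804.6 and 473.4 in PBS lungs at 72 h, and 220.3 and 585.8 in ragweed lungs at 72 h. The 24 h groups did not overlap, which held with ragweed lower for 17.8% of all probe sets, and the 72 h groups overlapped. The differences were -0.82 ± 0.39 at 24 h (95% interval -1.72 to 0.09, adjusted p = 0.631) and -0.58 ± 0.39 at 72 h (-1.48 to 0.33, adjusted p = 0.713 by limma). On version 2 A this probe set ran from 512.8 to 707 with a 72 h difference of -0.15 ± 0.23. A further Sdc1 probe set on version 2 A, 161370_f_at, ran from 256.3 to 486.9 with a 72 h difference of -0.40 ± 0.30, and neither was called (adjusted p = 0.87 and 0.689 by limma).

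Other genes of plasma cell formation were read from a list of 18 regulators, of which 14 passed the filter. At 24 h and at 72 h 0 of the 14 were called by limma, and 1 and 3 had an unadjusted p under 0.05, against 8.67% and 9.63% of all probe sets. Their median log2 difference was 0.18 at 24 h and 0.13 at 72 h, with -0.0013 and 0 over all 12840 genes tested. Bach2, a repressor that holds B cells back from plasma cell formation, had the lowest p in the mean of both times. Its intensity was 1921.1 and 2120 in PBS lungs at 24 h, 1060.9 and 784.4 in ragweed lungs at 24 h, 2898.8 and 2652.6 in PBS lungs at 72 h, and 1160.2 and 1420 in ragweed lungs at 72 h. Every ragweed lung was under every PBS lung, and the mean difference of -1.13 ± 0.20 missed the threshold (adjusted p = 0.0531 by limma). Bach2 was read on version 2 C, where the actin 3′ to 5′ ratio also separated the treatments, with 0.861 to 1.08 in PBS lungs and 1.11 to 1.60 in ragweed lungs, and its part in the Bach2 values was not tested. Pou2af1, the B cell coactivator of octamer factors, was named after its values were seen. It was 228.7 and 263.1 in PBS lungs at 24 h, 336.9 and 337.7 in ragweed lungs at 24 h, 361.6 and 369.5 in PBS lungs at 72 h, and 600.5 and 644.3 in ragweed lungs at 72 h. Its groups did not overlap, and the 72 h difference of 0.77 ± 0.17 was not called (adjusted p = 0.145 by limma).

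Among receptors, survival factors and homing signals of plasma cells, 20 of 30 listed genes passed the filter and 0 were called at either time by limma, with 4 and 3 at an unadjusted p under 0.05, against 8.67% and 9.63% of all probe sets. The median difference was 0.13 at 24 h and 0.11 at 72 h. Cxcl12, the chemokine that draws plasma cells through Cxcr4, had the lowest p in the mean of both times. It was 1872.7 and 1681.1 in PBS lungs at 24 h, 1486.8 and 1571.5 in ragweed lungs at 24 h, 1907.9 and 1959.8 in PBS lungs at 72 h, and 1209.9 and 1124.3 in ragweed lungs at 72 h. Ragweed lungs were lower at each time without overlap, and the mean difference of -0.47 ± 0.10 was not called (adjusted p = 0.099 by limma). Tnfrsf17, the receptor BCMA of plasma cells, named after its values were seen, was 431.3 and 450.6 in ragweed lungs at 72 h and 166.1 and 153.8, under the floor, in PBS lungs at 72 h. The difference of at least 0.60 ± 0.20 was not called (adjusted p = 0.358 by limma).

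The secretion machinery of the endoplasmic reticulum, which folds and exports antibody and is partly under Xbp1, had 63 of 71 listed genes above the filter. By limma 0 of the 63 were called at 24 h or 72 h, with 11 (6 higher, 5 lower) and 15 (12 higher, 3 lower) at an unadjusted p under 0.05, against 8.67% and 9.63% of all probe sets. The median difference was -0.03 at 24 h and 0.14 at 72 h. Pdia4, a disulfide isomerase, had the lowest p in the mean of both times. It was 1462.7 and 1401 in PBS lungs at 24 h, 2044.4 and 1946.5 in ragweed lungs at 24 h, 751.4 and 1085.2 in PBS lungs at 72 h, and 1573.8 and 1632.8 in ragweed lungs at 72 h. Ragweed lungs were higher at each time without overlap, and the mean difference of 0.65 ± 0.13 was not called (adjusted p = 0.099 by limma). Over time in PBS lungs, where Jchain was higher at 72 h, 3 genes of this list were called and all 3 were lower at 72 h, in a comparison in which 0.095% of all probe sets were called lower. Hspa5, the chaperone BiP, differed by -1.25 ± 0.16, Manf, a secreted stress protein, by -1.42 ± 0.16 and Pdia6, a disulfide isomerase, by -1.19 ± 0.14 (adjusted p = 0.0208, 0.0121 and 0.0169 by limma). The list's median in that comparison was -0.29.

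The route of antibody through epithelium was read from 35 genes of vesicle sorting, transcytosis and Pigr regulation, of which 30 passed the filter. At both times 0 of the 30 were called by limma, with 2 and 1 at an unadjusted p under 0.05, against 8.67% and 9.63% of all probe sets. The median difference was -0.12 at 24 h and 0.01 at 72 h. Ap1b1, a subunit of the adaptor that sorts cargo such as Pigr, had the lowest p in the mean of both times, with 2407.5 and 1977.9 in PBS lungs at 24 h and 3164.6 and 2880 in ragweed lungs at 24 h. At 72 h it was 2400.5 and 2552.7 in PBS lungs and 2746.5 and 2760.9 in ragweed lungs, again without overlap. The mean difference of 0.31 ± 0.09 was not called (adjusted p = 0.258 by limma), and was smaller than the 1.59 ± 0.07 of Pigr.

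**Figure D4:**
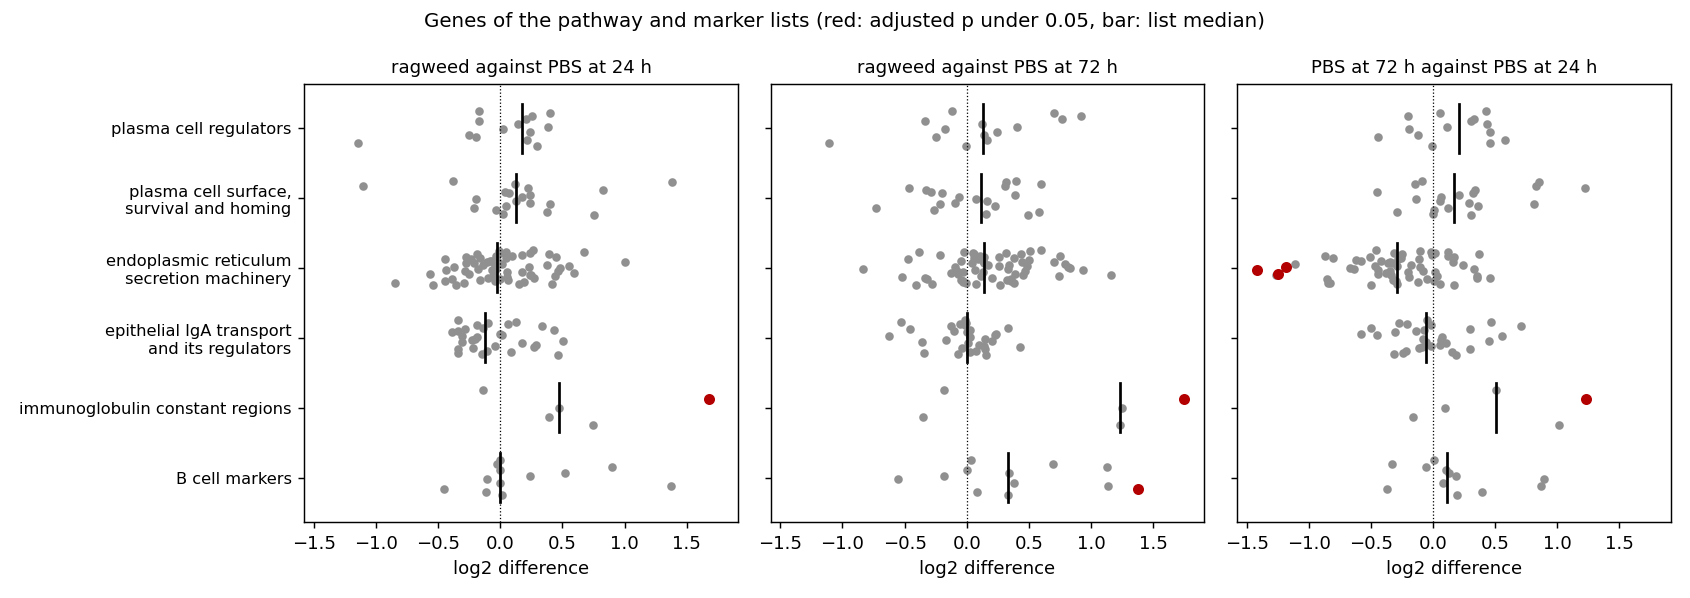
Log2 difference of each tested gene of 6 lists in 3 comparisons. Grey points were not called, red points were (adjusted p under 0.05), and the black bar is the list's median. Ighm is the red point of the immunoglobulin constant regions, Cd22 that of the B cell markers at 72 h, and Hspa5, Manf and Pdia6 those of the secretion machinery in PBS lungs over time.

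Levels of marker genes of other cell types were set beside Jchain, Mzb1 and Pigr. Of 12 tested B cell markers, 1 was called higher at 72 h and 0 at 24 h by limma. Among all probe sets 0.333% and 0.21% were, and 0.463% were called higher in the mean of both times. Of the 12 markers, 5 at 72 h (4 higher, 1 lower) and 3 at 24 h (2 higher, 1 lower) had an unadjusted p under 0.05. Among all probe sets 9.63% and 8.67% did. The summed intensity of the 12 markers ran from 5264 to 5861 in PBS lungs and 6742 to 7031 in ragweed lungs at 24 h. At 72 h it ran from 7433 to 7447 in PBS lungs and 9214 to 10023 in ragweed lungs. The called gene was Cd22, a B cell inhibitory receptor, with a difference of 1.38 ± 0.20 (adjusted p = 0.0289 by limma), and Cd37, a tetraspanin, was called in the mean of both times (1.26 ± 0.19, adjusted p = 0.0343). Cd22 was 328.5 and 89.6 in PBS lungs and 783.1 and 826.2 in ragweed lungs at 72 h. PBS 1b of 72 h entered raised to the floor, so 1.38 is not a fully measured size. At 24 h Cd22 was lower in ragweed lungs (139.6 and 255, both under the floor) than in PBS lungs (435.4 and 367.8). Ms4a1 and Cd79a, defining B cell markers, were above the floor in every sample and had 72 h differences of 0.70 ± 0.18 and -0.56 ± 0.19, neither called (adjusted p = 0.207 and 0.368 by limma). Between 0 and 5 of the 12 B cell genes lay under the floor in both samples of a group, 5 of them in PBS lungs at 24 h. The part of B cell number in the Jchain and Mzb1 values was not tested.

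Of 21 tested markers of airway and simple epithelium, where Pigr is made, 3 were called higher and 1 lower at 24 h. Among all probe sets 0.21% were called higher and 0.0198% lower at that time. At 72 h, against 0.333% and 0.194% of all probe sets, 1 of these markers was called higher and 1 lower. Their summed intensity ran from 161327 to 164099 in PBS lungs at 24 h, 194725 to 199721 in ragweed lungs at 24 h, 194713 to 196804 in PBS lungs at 72 h and 180193 to 194642 in ragweed lungs at 72 h, and 0 of the 21 lay under the floor in both samples of any group. At 24 h Muc5b, a gel-forming mucin, was 3.83 ± 0.18 higher, Scgb1a1, the main club cell secretoglobin, was higher and Krt19, a simple keratin, lower with -0.86 ± 0.11. Cyp2f2, a club cell cytochrome, was higher at 24 h with 0.65 ± 0.09 and lower at 72 h with -0.81 ± 0.09 (adjusted p from 8.36e-05 to 0.0367 by limma for these 4 genes). Cyp2f2 was 6351 and 7065.3 in PBS lungs and 10904.3 and 10155.3 in ragweed lungs at 24 h. At 72 h it was 21305.7 and 21530.6 in PBS lungs and 12419.5 and 12024 in ragweed lungs. Krt19 was 4985.5 and 5821.1 in PBS lungs at 24 h and 2910.4 and 2906.9 in those of 72 h. The differences of both genes are thus set against PBS lungs that differed between the times. Scgb1a1 lay at 71314.6 or 80239.3, the top of the quantile-normalized scale, in the 6 samples other than the PBS lungs of 24 h (30595.1 and 32315), so no size is given for it. Without Scgb1a1 the list's sum ran from 130732 to 131784 in PBS lungs and 119482 to 123410 in ragweed lungs at 24 h, and from 114473 to 125489 and 108878 to 123328 at 72 h, so at 24 h it was lower in ragweed lungs, the reverse of the sum with it. Muc5b was 925.1 and 934.1 in PBS lungs and 14885 and 11757.3 in ragweed lungs at 24 h. At 72 h it was 3798.7 and 3500.5 in PBS lungs and 12138.3 and 11850.2 in ragweed lungs. Its 24 h difference is thus set against PBS lungs lower than those of 72 h. Muc5b was read on version 2 C, whose actin ratio separated the treatments, and the part of that ratio in its value was not tested. Over time in PBS lungs 4 of the 21 were called higher and 2 lower, against 0.186% and 0.095% of all probe sets. At an unadjusted p under 0.05 stood 9 of the 21 at 24 h (4 higher, 5 lower) and 6 at 72 h (3 higher, 3 lower), against 8.67% and 9.63% of all probe sets. The part of epithelial cell number in the Pigr values was not tested.

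Of 9 tested macrophage and dendritic cell markers, Mpeg1 was called at 72 h (1.38 ± 0.23, adjusted p = 0.0498) and Mrc1 in the mean of both times (1.27 ± 0.19, adjusted p = 0.0316 by limma). Among all probe sets 0.333% were called higher at 72 h and 0.463% in the mean of both times. At an unadjusted p under 0.05 stood 3 of the 9 at 24 h (2 higher, 1 lower), 6 at 72 h (5 higher, 1 lower) and 7 in the mean of both times (6 higher, 1 lower), against 8.67%, 9.63% and 11.1% of all probe sets. Their summed intensity was mostly that of Lyz2, a lysozyme, which ran from 26783.8 to 49621.9 over the samples and had differences of -0.74 ± 0.15 at 24 h and -0.36 ± 0.15 at 72 h that were not called (adjusted p = 0.172 and 0.517 by limma). With Lyz2 the sum ran from 39317 to 39853 in ragweed lungs and 52247 to 59020 in PBS lungs at 24 h, and from 42563 to 50803 and 48483 to 52181 at 72 h. The other 8 genes summed to 11996 to 12531 in ragweed lungs and 9398 to 10574 in PBS lungs at 24 h, and to 14855 to 15780 and 10509 to 10621 at 72 h, higher in ragweed lungs at both times without overlap. Of 7 tested T cell markers 0 were called at either time by limma, with 1 (lower) at 24 h and 0 at 72 h under an unadjusted p of 0.05, against 8.67% and 9.63% of all probe sets. Cd3d had the lowest p in the mean (-1.10 ± 0.40, adjusted p = 0.358). The sum of 11 tested lung genes ran from 234761 to 279127 over the 8 samples. With no other tissue beside it, this sum cannot test the tissue label. Scgb1a1, also on the epithelial list, was the 1 of these genes called at 24 h, where 0.21% of all probe sets were called higher.

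Genes whose log2 values ran most like those of a member over the 8 samples of the same table are given as a description, since the 4 group means set most of such a correlation. For Jchain, among 5462 genes, they were Igkv6-23 (r = 0.997), Ighm (0.983), H2-K1 (0.976), Igkv6-14 (0.973) and Plac8 (0.968), of which 3 are antibody genes, and 49 genes had r over 0.9. For Pigr they were Fcgbp, an Fc-binding protein of mucus (r = 0.992), Chil3 (0.988), Mmp12 (0.985), Hc (0.981) and Igkv9-120 (0.976), and 43 genes had r over 0.9. For Mzb1, among 6108 genes of version 2 B, they were Entpd1 (r = 0.972), Lctl (0.97), Gabpb2 (0.97), Glrx2 (0.969) and Zfp106 (0.969), with 36 over 0.9. For Xbp1 they were Nbeal2 (r = 0.949), Folr2 (0.947), Fxyd5 (0.946), Isg15 (0.909) and Glmp (0.898), and 4 genes had r over 0.9.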

How the data were processed

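Whole-lung RNA of 8 samples was measured on 6 Affymetrix U74 array tables, 46 distinct arrays of 47, since 1 unlettered array equalled ragweed 1a of 24 h divided by 2.63. The deposited values are linear intensity per probe set, made by the authors with software not given in the sources used here. Control probe sets were left out. First-version A was restricted to the 9977 probe sets on both versions, scaled to a 2% trimmed mean of 800 (its PBS arrays had been left unscaled) and quantile normalized, and the deposited scale of version 2 B and C was kept. Values under the 40th percentile of a table were raised to it, and probe sets above it on at least 2 arrays were tested. The fits used limma 3.58.1 (R 4.3.3) per table (1 mean a group, 4 residual degrees of freedom, eBayes with trend), with Benjamini-Hochberg adjustment over the 3 tables. A difference is "at least" where both samples of the lower group lay under the floor and both of the higher group above it. Gene symbols came from platform annotation updated through RefSeq. A listed gene was represented by its brightest probe set of the first table that tested it, in the order A, B, C. Of the 12840 genes represented by that rule, 0.327% were called higher at 24 h, 0.374% at 72 h and 0.623% in the mean of both times. The shares set beside the list counts are those of all probe sets.

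Named were the 7 genes with all their probe sets, per list the called genes (at most 4) or else the gene of lowest p in the mean of both times, and the 5 genes most correlated with Jchain, Pigr, Mzb1 and Xbp1. Genes named otherwise were chosen after their values were seen, and are Igha, Pou2af1, Tnfrsf17, Ms4a1, Cd79a, Lyz2, Hspa5, Manf and Pdia6. The members and lists were chosen with earlier results of these data known. The fit was tested on simulated data for ragweed against PBS at 24 h (25250 probe sets): it recovered 17.9% of changes of 1, 76.1% of 2 and 97% of 3 on the log2 scale, with 3.79% of calls not simulated. The simulated noise was normal and independent between samples, and no floor was applied to it. These shares therefore need not hold for the real arrays. Alternatives were the floor, the normalization, the other array version, adjustment within tables, no trend, other PBS controls, a replicate block and each sample left out. Figures were drawn with matplotlib.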

Additional observations from a re-analysis of the deposited data

How the results depend on the processing

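With 2 samples a group, the 72 h calls of Jchain, Pigr and Mzb1 were each lost without any 1 of the 4 samples of 72 h, and that of Mzb1 also without either PBS sample of 24 h. Directions of the called differences of Jchain, Pigr and Mzb1 were kept in all alternatives run. The count of members called was 1 at 24 h against the PBS samples of the other time (2 in the fit reported), 0 on the other array version and 2 with adjustment within tables over time in PBS lungs (1 reported), and 1 over time in ragweed lungs (2 reported) with a floor at the 20th percentile, no floor, no quantile normalization of A, quantile normalized B and C, adjustment within tables, no trend or a replicate block. Leaving out 1 sample gave 2 members called at 24 h in each fit, 0 to 3 at 72 h, 2 to 3 in the mean of both times, 0 to 1 over time in PBS lungs and 0 to 2 over time in ragweed lungs. The causes were not tested.

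Probe sets called at 72 h were 82 without a floor, 85 on the other version, 80 without trend, 236 against the PBS samples of the other time and 238 against both (133 reported), and 2 to 59 with 1 sample left out. At 24 h they were 91 with adjustment within tables (58 reported) and 22 to 204 with 1 sample left out. In the mean of both times they were 248 within tables, 98 without trend (164 reported) and 39 to 106 with 1 left out. For the difference of responses they were 23, 4 (9 reported) and 0 to 5. Over time in PBS lungs they were 41 on the other version, 32 without trend (71 reported) and 0 to 20 with 1 left out. Over time in ragweed lungs they were 42 at the lower floor, 48 without a floor, 127 within tables, 43 without trend, 47 with the replicate block (77 reported) and 0 to 200 with 1 left out.

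Reversals were confined, in the alternatives run, to differences that were not called. On the other version these were Prdm1 at 72 h (-0.071), Mzb1 at 24 h (-0.046, with values under the floor) and, over time in PBS lungs, Xbp1 (-0.12) and Sdc1 (0.32). Without quantile normalization Prdm1 over time in PBS lungs was 9e-04. With 1 sample left out, Xbp1 over time in PBS lungs ran from -0.077 to 0.52 and its difference of responses from -0.45 to 0.15, Sdc1's difference of responses from -0.26 to 0.74 (-0.14 without PBS 1b of 72 h) and its difference over time in ragweed lungs from -0.76 to 0.25, and Prdm1 in the mean from -0.004 to 0.10. No pairing of the samples by the numbers 1a and 1b was visible. Over 18 comparisons of pairs of groups, made within each fitted table, their deviations correlated with r from -0.08 to 0.04. This does not show that the samples were unpaired. With the replicate block, Mzb1 over time in ragweed lungs was no longer called (2.61, adjusted p = 0.0609 by limma), and no other member's call changed.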
